A study of Striga hermonthica with 6 samples.

Results

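Stage 6 haustorium of *Striga hermonthica* was compared with haustorium whose labels give no stage, over every small RNA locus of the count files. The comparison took in 4 of the 6 libraries of the series: stage 6 haustorium replicates 1 and 2, and haustorium replicates 1 and 3 without a stage (unstaged haustorium from here on). Of the 25056 loci counted, the 24988 that carry no *MIRNA* mark, called other loci from here on, are described, and the 68 marked loci were used only in the shared fit. The 2 leaf libraries entered only the estimate of spread shared by all groups and a further way of sorting loci by abundance, and leaf reads are given beside some single loci. In all 4 libraries the parasite was of the Kibos ecotype (genotype kibos in the labels) on rice of the variety KitaakeX as the labels name it (Kitaake in the study's text), kept for 45 days at 30 °C with 16 hours of light. What stage 6 means is not defined in the labels or the study's text. Whether unstaged haustorium was of another stage or a mixture of stages is not given. No source says whether a library came from 1 plant or from pooled material. P-values here therefore speak only to how far these libraries scatter, and that scatter may be technical.

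*S. hermonthica* is a root parasite of cereals, and the haustorium is the organ that joins it to the host root and draws water and nutrients across. Plants make several classes of small RNA. MicroRNAs are cut from hairpin transcripts and lower the output of matching mRNAs. Small interfering RNAs are cut from double-stranded RNA, many of them from transposons and repeats, where they guide DNA methylation. ShortStack, the program that defined these loci, joins stretches of the genome covered by small RNA reads into intervals. A locus length here is the length of such an interval on the SHERM assembly, not the length of a small RNA. The loci not marked as *MIRNA* can hold small interfering RNAs as well as fragments of other RNA, and the counts do not separate these. Small RNA counts carry no tissue marker genes, so the tissue labels were not checked against markers.

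Other loci took 98.5% and 98.8% of the counted reads in stage 6 replicates 1 and 2, and 99.3% and 99.4% in unstaged replicates 1 and 3. The counted reads came to 3031863 and 6952469 in stage 6 haustorium and 8381235 and 6792159 in unstaged haustorium. The TMM factors, which correct a library total for loci that take a large share of it, were 0.833 and 1.77 in stage 6 haustorium and 0.981 and 0.608 in unstaged haustorium. Stage 6 replicate 2 thus stood apart from the rest. In that library the 10 strongest of the other loci held 12.7% of their reads, against 23.2% in stage 6 replicate 1, and 21.9% and 24.7% in unstaged replicates 1 and 3. Its rank correlation with stage 6 replicate 1 over the 24988 loci was 0.344, and the unstaged libraries had a rank correlation of 0.365 with each other. Across the groups the rank correlations were between 0.202 and 0.385, so libraries of a group were not closer to each other than to all libraries of the other group. These correlations are across loci that share library and depth, and loci are not replicates. Counts within a group differed far beyond sampling noise, with a chi-square per degree of freedom of 118 in stage 6 haustorium and 107 in unstaged haustorium.

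No locus passed edgeR's quasi-likelihood test between stage 6 and unstaged haustorium at an adjusted p under 0.05. The test covered 24421 loci, and 0 of them were higher and 0 lower (0% called in each direction), with a smallest adjusted p of 0.99955 in edgeR. At an unadjusted p under 0.05, edgeR had 570 loci higher and 503 lower, or 4.39% of those tested. The median standard error of a log2 fold change was 1.18, with a common biological coefficient of variation of 1.00. DESeq2, run as an alternative on 25056 loci, called 193 higher (0.77%) and 195 lower (0.778%). None of those carried the *MIRNA* mark. CPM stands for counts scaled to the counted reads of a library, and TMM-scaled CPM for counts scaled to its total over the tested loci times its TMM factor. In TMM-scaled CPM, 178 of the 193 and 180 of the 195 had stage 6 libraries that did not overlap with unstaged ones. Over all other loci, 17.9% were so with stage 6 haustorium above and 17% with it below. The same counts gave the calls, so this is not a separate check of them. A library with 0 reads occurred at 130 of the 193 and 135 of the 195. The median log2 fold change over all loci tested was 0.02 with TMM and 0.74 with plain library totals. Directions below are in TMM-scaled CPM unless plain CPM or a share of reads is named, and they are relative to the bulk of loci. Shares of reads are parts of a library's own reads of other loci, without TMM scaling.

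Loci that moved the same way in both libraries were counted directly. At 4464 other loci (17.9%) both stage 6 libraries lay above both unstaged ones, and at 4238 (17%) both lay below. The 4 libraries can be put in pairs in 2 other ways, neither of which follows the labels. With stage 6 replicate 1 and unstaged replicate 1 as a pair, 13.5% of loci lay above the other pair and 15% below. With stage 6 replicate 1 and unstaged replicate 3 as a pair, 14.1% lay above and 21.3% below. The labelled pairing separated 34.8% of loci in all, against 28.5% and 35.5% for the other pairings, so one of the pairings that cut across the labels separated slightly more loci than the labels did. With a gap of at least 2-fold between the nearest libraries, after adding 1 to each value, 911 loci (3.65%) were above and 1236 (4.95%) below in stage 6 haustorium. That made 2147 loci in all. The pairing of stage 6 replicate 1 with unstaged replicate 1 had 1384 (2.3% above, 3.24% below), and that of stage 6 replicate 1 with unstaged replicate 3 had 2354 (3.41% above, 6.01% below).

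**Figure D1:**
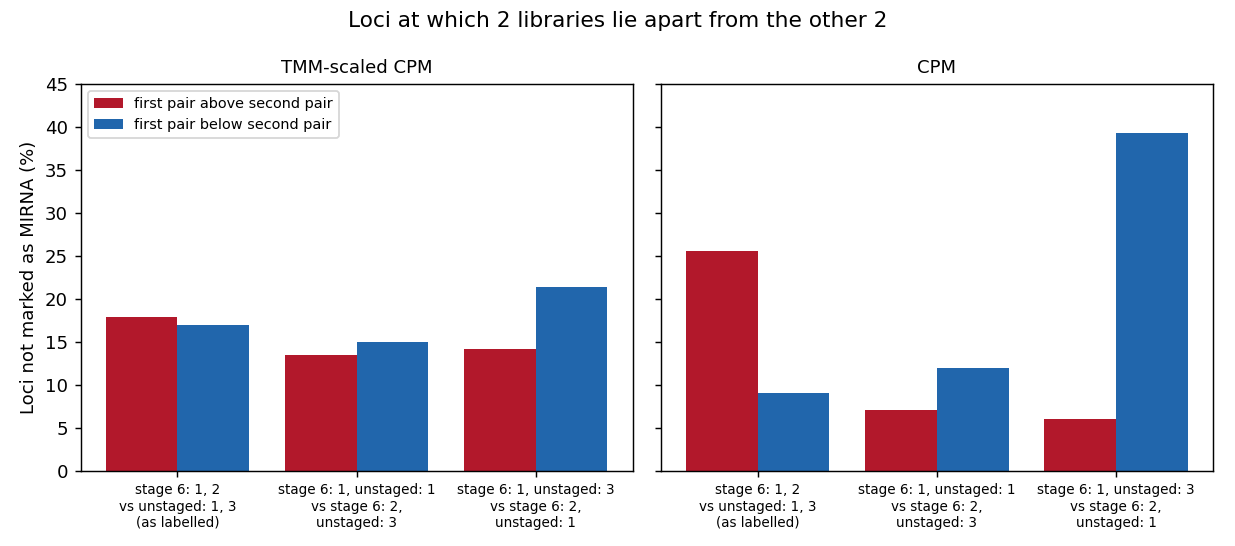
Percent of the 24988 other loci at which both libraries of a pair lay above (left bar) or below (right bar) both libraries of the other pair. Shown are the labelled pairing and the 2 other pairings, in TMM-scaled CPM and in plain CPM. The labelled pairing had 17.9% above and 17% below in TMM-scaled CPM, and 25.6% above and 9% below in plain CPM.

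The scale set the balance between gains and losses. In plain CPM, 25.6% of loci were above in both stage 6 libraries and 9% below, and 6.28% and 3.43% were so by at least 2-fold. On that scale the pairing of stage 6 replicate 1 with unstaged replicate 3 separated the most loci, with 6.03% above and 39.2% below, and the remaining pairing had 7.02% above and 11.9% below. Statements on gains against losses are therefore made class by class, with the scale named where it turns them.

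By length, the long loci were most often above in stage 6 haustorium, and loci near 416 nt were often below. Of the 241 loci of 1600 nt or more, 46.5% were above in both stage 6 libraries and 5.39% below, beside 17.9% and 17% of all other loci. In plain CPM these were 61.8% and 3.32%. Their median TMM-scaled CPM was 484 and 351 in stage 6 replicates 1 and 2, and 318 and 265 in unstaged replicates 1 and 3. The separation was narrow, since 2.07% of these loci were at least 2-fold above and 0 were 2-fold below. The same loci were above at 21.6% and 12.4% and below at 5.39% and 8.71% in the 2 other pairings. Loci from 800 to under 1600 nt, 694 in number, had 30.4% above and 7.49% below. Their medians were 41.3 and 36.1 in stage 6 haustorium and 33.6 and 30.0 in unstaged haustorium. In the other pairings 19.2% and 14.1% of them were above and 9.37% and 19.5% below.

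Without any 1 of the 4 libraries, 52.3% to 68.5% of the loci of 1600 nt or more lay above the other group and 12.4% to 21.2% below. With a library left out, a locus needs to clear only 1 library on that side, and over all other loci 29.3% to 36.7% were above and 30.2% to 35.2% below. The long loci were also the deepest in reads. The median locus of 1600 nt or more had a mean of 372 CPM, against 5.48 CPM for loci from 400 to under 420 nt, and 26.6% of them overlapped an annotated gene, against 11.4% of all other loci. Together they held 25.4% and 28.8% of the reads of other loci in stage 6 haustorium, against 24.8% and 23.6% in unstaged haustorium. The groups did not overlap in this share, with a difference of 2.88 percentage points (1.23 without stage 6 replicate 2, 4.54 without stage 6 replicate 1). For loci from 800 to under 1600 nt the share was 8.56% and 14.0% in stage 6 haustorium, against 8.48% and 5.99% in unstaged haustorium, a difference of 4.06 (1.33 without stage 6 replicate 2, 6.79 without stage 6 replicate 1). The exact permutation test of 2 libraries against 2 cannot go below a two-sided p of 0.333, which both shares had (0.667 after adjustment over the 6 length classes). No other length class had shares of reads that separated the groups. All these shares are without TMM scaling. From 800 to under 1600 nt and at 1600 nt or more, stage 6 replicate 2 had the largest share. Its TMM factor was also the largest (1.77), and whether the shares stay apart after scaling was not tested.

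**Figure D2:**
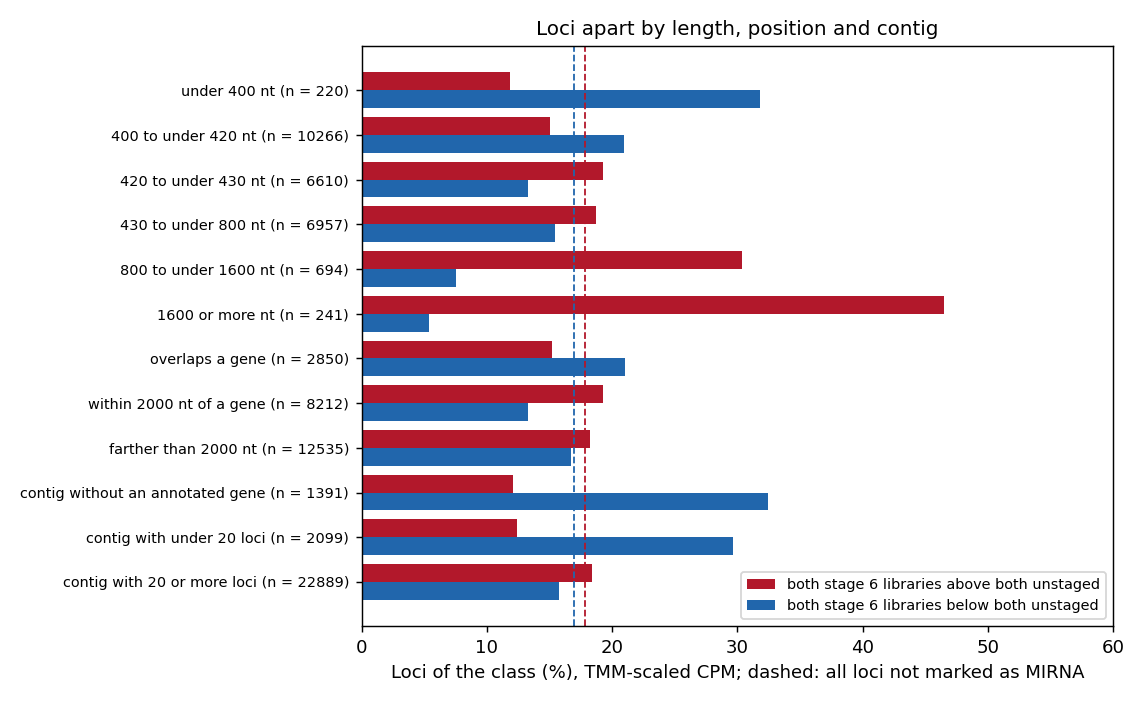
Percent of other loci above or below in both stage 6 libraries, by class of length, position and number of other loci on the contig. Values are in TMM-scaled CPM, and dashed lines give the percent over all other loci. The loci of 1600 nt or more stand out above (46.5%), and loci on contigs without an annotated gene stand out below (32.4%).

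Most loci measured from 400 to under 430 nt. The 5 most frequent lengths were 424 nt (1606 loci), 415 nt (1188), 423 nt (1113), 416 nt (1066) and 417 nt (1044). Between 401 and 429 nt, 4 neighbouring lengths stood together. At each length from 415 to 418 nt (4100 loci in all), 26.1% to 32.8% of loci were below in both stage 6 libraries and 8.08% to 12.3% above. At the other 25 lengths of that range (12774 loci), 10.4% to 19.0% were below and 13.9% to 26.4% above. The 4 lengths were singled out after their values were seen.

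Loci of 416 nt had a median TMM-scaled CPM of 4.37 and 1.06 in stage 6 replicates 1 and 2, and 5.02 and 8.99 in unstaged replicates 1 and 3. The most frequent length, 424 nt, had 5.17 and 7.60 in stage 6 haustorium and 6.61 and 4.86 in unstaged haustorium. Stage 6 replicate 2 was thus lowest and unstaged replicate 3 highest at 416 nt, while at 424 nt stage 6 replicate 2 was highest and unstaged replicate 3 lowest. Stage 6 replicate 1 and unstaged replicate 1 lay between them at both lengths. In plain CPM, 15.5% of the 416 nt loci were above and 27.0% below. In the pairing of stage 6 replicate 1 with unstaged replicate 3, 27.5% of them were above and 10.1% below, so these loci also differed between libraries across the labels. Loci of 415 to 418 nt took 4.61% and 2.56% of the reads of other loci in stage 6 haustorium, against 4.40% and 8.76% in unstaged haustorium, so the groups overlapped in their summed share. Taken by length, 416 nt overlapped and the other 3 lengths were lower in stage 6 haustorium without overlap. At 417 nt the share was 1.05% and 0.639% in stage 6 haustorium, against 1.22% and 2.80% in unstaged haustorium. Without stage 6 replicate 2, 40.3% of the 416 nt loci were below, and without unstaged replicate 3, 44.0%. Without stage 6 replicate 1 it was 58.8%, and without unstaged replicate 1 it was 55.8%, beside 30.2% to 35.2% of all other loci. The TMM factors varied along with it, being highest (1.77) in the library that was lowest at 416 nt and lowest (0.608) in the library that was highest there. Their part in it was not tested.

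**Figure D3:**
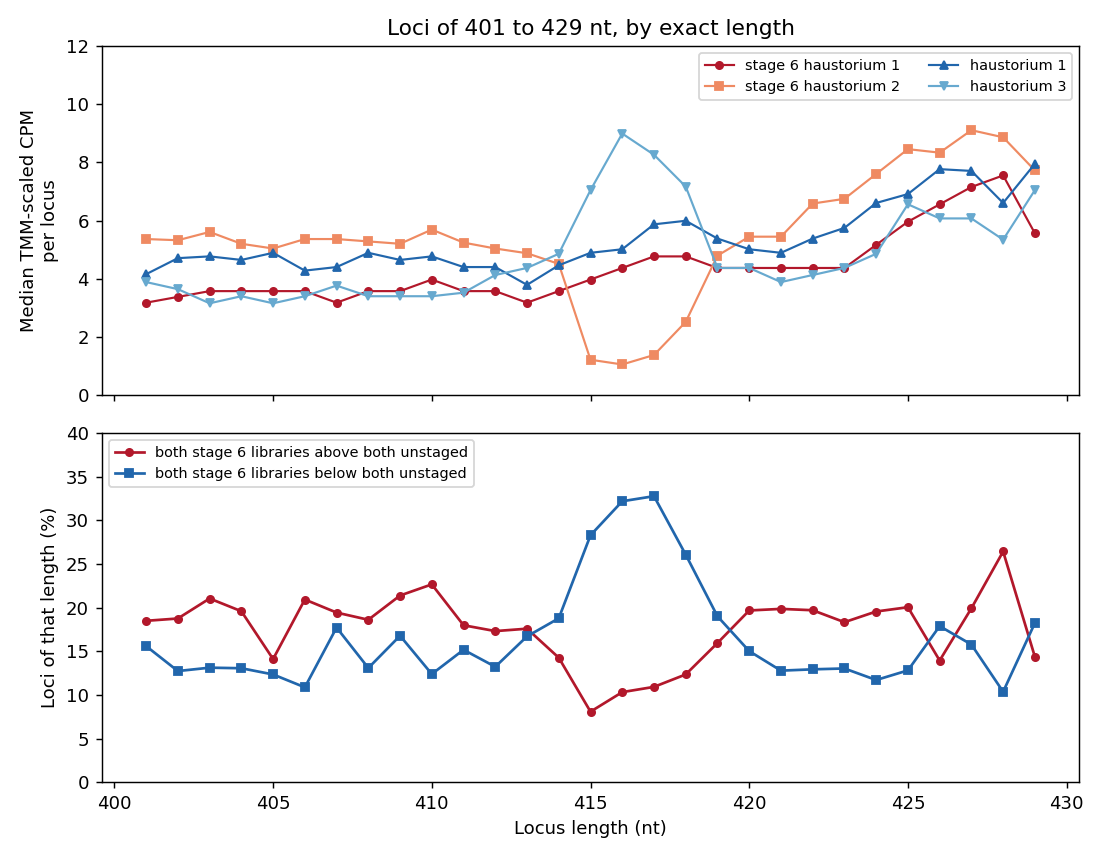
Median TMM-scaled CPM of other loci at each locus length from 401 to 429 nt in the 4 libraries, and the percent of loci of that length above or below in both stage 6 libraries. From 415 to 418 nt the median dips in stage 6 replicate 2 and peaks in unstaged replicate 3, while the other libraries stay between 3.97 and 5.99.

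The lower loci were short as a set. Loci at least 2-fold below in stage 6 haustorium had a median length of 417 nt, and 61.8% of them measured 400 to under 420 nt, against 41.1% of all other loci. Loci at least 2-fold above had a median of 422 nt, as did all other loci. Loci from 420 to under 430 nt had 19.2% above and 13.3% below. In the other pairings they had 13.5% and 10.7% above and 17.3% and 24.5% below. Without stage 6 replicate 2 the balance turned, with 32.1% above and 33.9% below, and without unstaged replicate 3 it was 31.9% and 31.5%. Without stage 6 replicate 1 it was 41.8% and 22.3%, and without unstaged replicate 1 it was 38.8% and 26.8%. Those from 400 to under 420 nt had 15.0% above and 21.0% below, a balance that turned in plain CPM. The other pairings had 12.6% and 17.1% above and 13.6% and 19.1% below. Under 400 nt, 11.8% of 220 loci were above and 31.8% below, against 13.2% and 11.4% above and 12.7% and 16.4% below in the other pairings.

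By abundance, the class from 100 to under 1000 CPM had the largest share of loci above in stage 6 haustorium, and the labelled pairing differed little there from one of the others. Classes were set on the mean CPM of the 2 haustorium groups. Of the 637 loci from 100 to under 1000 CPM, 27.0% were above in both stage 6 libraries and 11.6% below. The pairing of stage 6 replicate 1 with unstaged replicate 3 had 25.6% above and 10.7% below, and the remaining pairing 18.5% and 6.12%. Without stage 6 replicate 1 the balance turned, with 34.5% above and 38.3% below, and without stage 6 replicate 2 it was 50.1% and 20.9%. Length moved with this class. Of loci of 100 CPM or more, 45.9% of those of 1600 nt or more were above and 5.68% below, and from 800 to under 1600 nt 37.2% and 5.77%. From 430 to under 800 nt 8.01% were above and 17.6% below, and of 53 such loci from 400 to under 420 nt 1.89% and 35.8%. Without TMM scaling, the loci from 100 to under 1000 CPM held 21.3% and 24.9% of the reads of other loci in stage 6 haustorium. In unstaged haustorium they held 19.2% and 16.7%. The difference was 5.14 percentage points with no overlap (3.37 without stage 6 replicate 2, 6.91 without stage 6 replicate 1). Per locus the groups overlapped, with a median TMM-scaled CPM of 273.4 and 149.4 in stage 6 replicates 1 and 2. The medians were 198.9 and 221.3 in unstaged replicates 1 and 3. Stage 6 replicate 2 thus had the largest share and the lowest median in this class. The share of the class from 50 to under 100 CPM was apart as well, with 2.64% and 3.74% in stage 6 haustorium and 2.55% and 2.38% in unstaged haustorium. The difference was 0.730 (0.179 without stage 6 replicate 2, 1.28 without stage 6 replicate 1). Its median TMM-scaled CPM overlapped too, at 72.33 and 56.5 in stage 6 haustorium and 57.98 and 57.46 in unstaged haustorium. The exact permutation p was 0.333 for both shares, the smallest possible, and 0.778 after adjustment over the 7 classes.

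The 140 loci of 1000 CPM or more held 59.1% and 36.1% of the reads of other loci in stage 6 haustorium, against 57.8% and 66.3% in unstaged haustorium. Stage 6 replicate 2 alone was low, and the groups overlapped. In this class 15.7% of loci were above and 22.1% below, and the pairing of stage 6 replicate 1 with unstaged replicate 3 separated more of them, with 46.4% above and 2.14% below. Under 5 CPM, 13.7% of 6531 loci were above and 22.2% below, a balance that turned in plain CPM. Since the haustorium counts define these classes, the loci were also sorted by their CPM in leaf. By leaf CPM, 27.8% of loci from 100 to under 1000 CPM were above and 11.4% below, against 23.1% and 10.96% in the pairing of stage 6 replicate 1 with unstaged replicate 3 and 19.0% and 6.79% in the remaining one. By leaf CPM under 5, 11.2% were above and 25.9% below. The pairing of stage 6 replicate 1 with unstaged replicate 3 had 14.4% above and 23.0% below there, and the remaining one 11.8% and 12.6%.

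**Figure D4:**
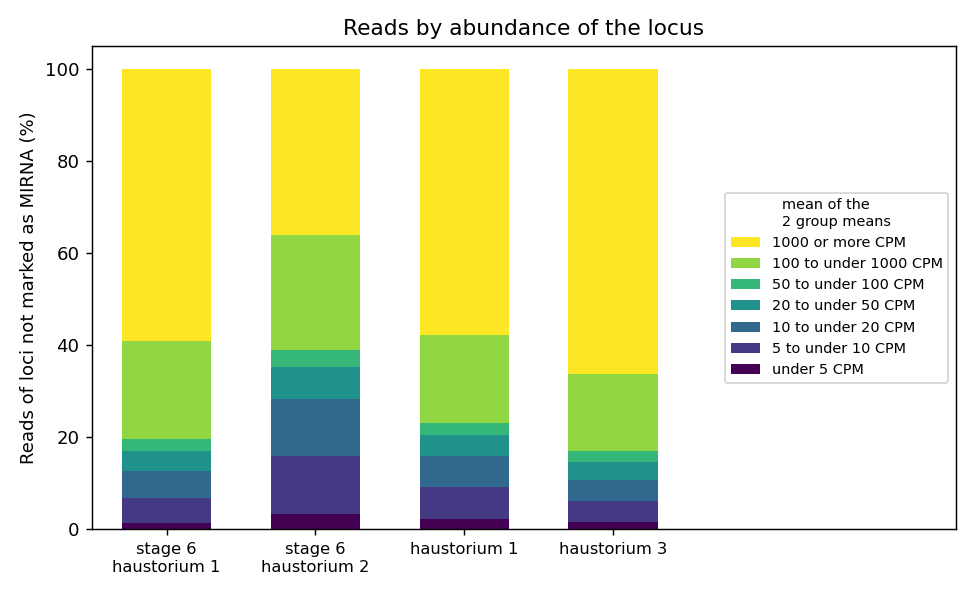
Share of the reads of other loci, in percent, held by each class of mean CPM in the 4 libraries, with stage 6 haustorium left of unstaged haustorium. The class of 1000 CPM or more is low in stage 6 replicate 2 (36.1%), while the other 3 libraries hold 57.8% to 66.3% there.

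By position, loci on small contigs were often below in stage 6 haustorium. The assembly pieces that carry a locus number 1581, and 1492 of them hold fewer than 20 other loci, 2099 loci in all. Of these, 12.4% were above in both stage 6 libraries and 29.6% below, against 18.4% and 15.8% on the 89 larger contigs. The other pairings had 12.7% and 16.9% above and 10.9% and 15.3% below on the small contigs. Medians there were 3.58 and 3.25 TMM-scaled CPM in stage 6 haustorium, and 6.24 and 5.59 in unstaged haustorium, with no overlap. In TMM-scaled CPM the share of loci below was alike among loci of 420 nt or more (13.9% above, 29.9% below) and among shorter ones (10.8% above, 29.3% below). With any 1 library left out, 42.0% to 47.6% of the loci on small contigs were below and 20.7% to 25.9% above. In plain CPM 16.9% of the loci on small contigs were above and 20.5% below. On that scale the balance turned among loci of 420 nt or more (19.9% above, 18.2% below). It did not turn among shorter ones (13.6% above, 23.0% below).

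The 1391 loci on contigs without an annotated gene had 12.1% above and 32.4% below, against 13.1% and 14.8% above and 9.99% and 15.5% below in the other pairings. Their share of the reads of other loci was 7.29% and 8.33% in stage 6 haustorium, against 9.41% and 8.49% in unstaged haustorium. Loci that overlap an annotated gene held 25.6% and 19.4% in stage 6 haustorium, against 26.2% and 27.3% in unstaged haustorium. Both shares were lower in stage 6 haustorium without overlap, by 1.14 and 4.22 percentage points (exact permutation p = 0.333 each, 0.667 adjusted over 4 positions). With 1 library left out, stage 6 minus unstaged haustorium came to between -1.66 (without stage 6 replicate 2) and -0.616 (without stage 6 replicate 1) on contigs without a gene. For loci that overlap a gene it was -7.37 without stage 6 replicate 1 and -1.08 without stage 6 replicate 2. Of the loci that overlap a gene, 15.2% were above and 21.1% below, which turned in plain CPM. In the other pairings 14.0% and 18.2% of them were above and 12.7% and 17.6% below. Within 2000 nt of a gene, 19.2% of 8212 loci were above and 13.3% below. In the other pairings 13.6% and 11.3% of these were above and 17.0% and 25.1% below. Without stage 6 replicate 2 the balance turned, with 31.9% above and 35.2% below, and without unstaged replicate 3 it was 31.2% and 32.1%. Without stage 6 replicate 1 it was 41.1% and 24.1%, and without unstaged replicate 1 it was 39.2% and 27.3%.

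Shares of reads by contig were also taken without TMM scaling. Among the 89 contigs with at least 20 other loci, the share was apart and higher in stage 6 haustorium on 29 (32.6%) and lower on 4 (4.49%). The 2 other pairings separated 18 and 38 contigs, as 5 above with 13 below and 14 above with 24 below. With the strongest locus of each contig set aside, 31 contigs were higher and 4 lower in stage 6 haustorium, and the other pairings had 3 above with 16 below and 4 above with 31 below. The contig with the most loci, CACSLK010030184.1 with 1193, held 4.39% and 5.27% of the reads in stage 6 haustorium and 4.17% and 4.43% in unstaged haustorium, so the groups overlapped. The groups also overlapped on the next, CACSLK010034598.1 with 1154 loci, at 3.70% and 5.07% in stage 6 haustorium and 3.83% and 3.55% in unstaged haustorium. The third by number, CACSLK010027752.1 with 1109 loci, held 18.4% and 8.59% in stage 6 haustorium, against 16.8% and 18.8% in unstaged haustorium.

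Contigs with the widest gaps were smaller. On CACSLK010034050.1 the 392 loci held 0.798% and 0.855% of the reads in stage 6 haustorium, against 0.504% and 0.371% in unstaged haustorium. On CACSLK010009714.1 the 267 loci held 0.800% and 0.575% in stage 6 haustorium, against 0.395% and 0.348% in unstaged haustorium. On CACSLK010030308.1, with 22 loci, the shares were 0.0610% and 0.0469% in stage 6 haustorium and 0.0191% and 0.0103% in unstaged haustorium. On the lower side, the 131 loci of CACSLK010017224.1 held 1.57% and 1.04% in stage 6 haustorium, against 2.23% and 3.22% in unstaged haustorium. CACSLK010015718.1, with 209 loci, held 0.621% and 0.456% in stage 6 haustorium, against 0.736% and 0.840% in unstaged haustorium, and CACSLK010018944.1, with 54 loci, held 0.0376% and 0.0554%, against 0.0586% and 0.0735%. Without the strongest locus of each contig, the groups overlapped on these 3 and on CACSLK010030308.1, and stayed apart on CACSLK010034050.1 and CACSLK010009714.1. Counted by locus in TMM-scaled CPM, 17.1% were above and 14.03% below on CACSLK010034050.1, and 18.4% and 15.7% on CACSLK010009714.1. Over all other loci it was 17.9% and 17%. CACSLK010030308.1 had 31.8% above and 13.6% below. On the lower side, CACSLK010017224.1 had 21.4% above and 18.3% below, and CACSLK010015718.1 had 18.7% and 11.96%. CACSLK010018944.1 had 1.85% above and 12.96% below. The shares thus did not stand for most loci of these contigs. On single contigs with at least 20 loci, 1.85% to 37.8% of loci were above and 10.8% to 40.6% below.

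Single loci with the widest gap between the groups were picked from the 8278 other loci with a mean of at least 10 CPM. Loci above are called gains and loci below losses. The gap of the 10th gain was 4.94 on the log2 scale, after adding 1 to the TMM-scaled CPM, and that of the 11th was 4.61. For the losses the 10th was 5.24 and the 11th 5.21. These loci were chosen for their gap, so their values are a description. None of the 20 passed edgeR, and DESeq2 called all 20. Because most were at or near 0 reads in 1 group, folds are given on the pooled reads scaled by effective library size. They carry 95% exact intervals for counting error only, or are bounds against a floor of 3 reads over the group. Bounds, too, are on the pooled reads, and a single library can fall short of them.

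Among the gains, Cluster_995 had 2201 and 1522 reads in stage 6 haustorium, against 2 and 1 in unstaged haustorium, and 0 in both leaf libraries. It spans 2677036 to 2677506 on CACSLK010001140.1, 2744 nt from the gene SHERM_10197. In TMM-scaled CPM it was at 875 and 124 in stage 6 haustorium, against 0.245 and 0.243 in unstaged haustorium, so replicates of stage 6 differed several-fold while both lay far above. The pooled level was 1029-fold higher (352 to 4994). Cluster_13109, 8871073 to 8871508 on CACSLK010027624.1 and 1160 nt from SHERM_02110, had 444 and 1447 reads in stage 6 haustorium, against 3 and 0 in unstaged haustorium and 0 in leaf, a pooled 523-fold (179 to 2538).

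Cluster_13504, 502 nt from SHERM_23184 on CACSLK010027752.1, had 7737 and 964 reads in stage 6 haustorium and 0 in both unstaged libraries. The pooled level was at least 2406-fold higher in stage 6 haustorium. In TMM-scaled CPM the stage 6 libraries were far apart, at 3075 in replicate 1 and 78.4 in replicate 2. Leaf had 0 and 2048 reads there, so reads were also missing from a single library of a pair. Cluster_21463 had 3018 and 741 reads in stage 6 haustorium and 0 in both unstaged libraries, at least 1039-fold higher. The other loci with no read in unstaged haustorium were Cluster_22244 with 422 and 476 reads in stage 6 haustorium, Cluster_1275 with 165 and 407, and Cluster_1396 with 79 and 420. Their folds were at least 248, 158 and 138. Leaf had 1 and 182 reads at Cluster_22244, 97 and 211 at Cluster_1275, and 227 and 344 at Cluster_1396.

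A pair of the gained loci had nearly the same counts. Cluster_8705, bases 1 to 255 of the contig CACSLK010020067.1, had 714 and 1941 reads in stage 6 haustorium, against 14 and 7 in unstaged haustorium. Cluster_22512, 7026 to 7444 on CACSLK010032310.1, had 670 and 1815 reads in stage 6 haustorium, against 14 and 7 in unstaged haustorium. Whether these loci are copies that share reads was not tested, and both are reported as uncertain. In leaf they differed, with 4 and 16 reads at Cluster_8705 and 66 and 12 at Cluster_22512. Cluster_11645, 423 nt long, was the 10th gain, with 260 and 640 reads in stage 6 haustorium, against 4 and 3 in unstaged haustorium. Leaf had 1392 and 609 reads there, so it was low only in unstaged haustorium among the 3 groups. Its log2 fold change in edgeR was 6.98 (SE 0.93).

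**Figure D5:**
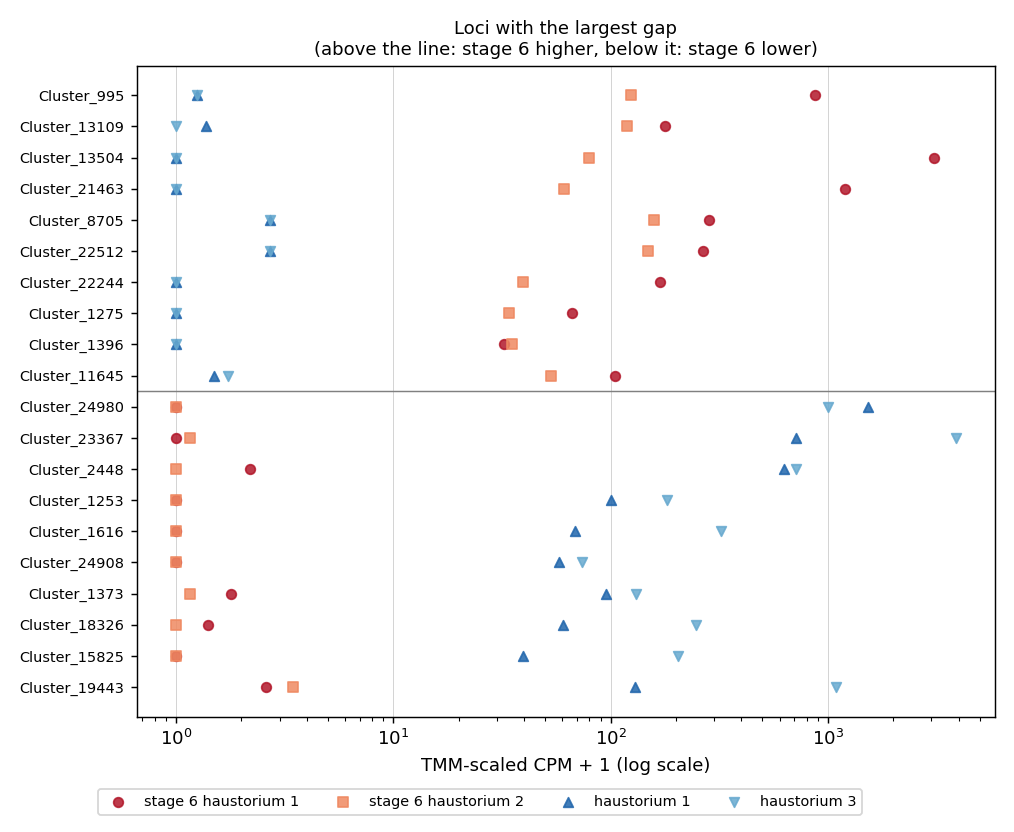
TMM-scaled CPM, plus 1 on a log axis, of the 10 loci with the widest gap above and the 10 with the widest gap below, in the stage 6 libraries and the unstaged libraries. The 10 gains are at 31.4 or more in stage 6 haustorium and at 1.71 or less in unstaged haustorium.

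Among the losses, Cluster_24980, 2951646 to 2952113 on CACSLK010035018.1, had 0 reads in both stage 6 libraries, against 12566 and 4129 reads in unstaged haustorium. It was at least 6708-fold lower in stage 6 haustorium, and leaf had 67 and 12547 reads. Cluster_23367, a 416 nt locus, had 0 and 2 reads in stage 6 haustorium, against 5859 and 15946 in unstaged haustorium. Its pooled level was 13143-fold higher in unstaged haustorium (3638 to 108529), and leaf had 0 and 234 reads. Cluster_2448 had 3 and 0 reads in stage 6 haustorium, against 5153 and 2937 in unstaged haustorium. Leaf had 1 and 3551 reads at Cluster_2448, so the leaf libraries differed widely from each other there.

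Of the other losses, 2 overlapped an annotated gene. Cluster_24908 in SHERM_09055 had 0 reads in both stage 6 libraries, against 466 and 299 in unstaged haustorium, at least 307-fold lower in stage 6 haustorium. Cluster_15825 in SHERM_26054 had 0 reads in both, against 316 and 841 in unstaged haustorium, at least 465-fold lower. Cluster_1253 and Cluster_1616 were also at 0 in both stage 6 libraries. Cluster_1253 had 810 and 744 reads in unstaged haustorium, at least 624-fold lower in stage 6 haustorium, and Cluster_1616 had 553 and 1325, at least 755-fold. The leaf libraries differed from each other at several of these, with 893 and 0 reads at Cluster_1616, 0 and 548 at Cluster_15825, and 396 and 8 at Cluster_24908. Cluster_1373 had 2 and 2 reads in stage 6 haustorium, against 770 and 534 in unstaged haustorium, with 1897 and 66 in leaf. Cluster_18326 had 1 and 0 reads in stage 6 haustorium, against 488 and 1010 in unstaged haustorium. Cluster_19443, a 415 nt locus, had 4 and 30 reads in stage 6 haustorium, against 1053 and 4470 in unstaged haustorium.

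Loci read in 1 pair of libraries and absent from the other occurred in every pairing. These counts are on raw reads, and depth differed between libraries. Of the 24988 other loci, 11.5% and 6.27% had 0 reads in stage 6 replicates 1 and 2, and 5.36% and 9.01% in unstaged replicates 1 and 3. With at least 10 reads in both libraries of a pair and 0 in both of the other, 82 of the 24988 were read only in stage 6 haustorium. Only in unstaged haustorium there were 111. With stage 6 replicate 1 and unstaged replicate 3 as a pair, 33 loci were read only there and 257 only in the other pair. With stage 6 replicate 1 and unstaged replicate 1 as a pair the counts were 37 and 106. The labelled groups thus lay between the other pairings in this number.

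The most abundant loci did not separate the groups, with 1 exception. Cluster_18812, with the highest mean CPM, had 90196 and 13193 TMM-scaled CPM in stage 6 haustorium, against 57477 and 93543 in unstaged haustorium. It spans 3400637 to 3401111 on CACSLK010028053.1, 141 nt from SHERM_02446. Cluster_13536, which overlaps SHERM_23235, had 46958 and 1219 in stage 6 haustorium, against 31526 and 28853 in unstaged haustorium. Stage 6 replicate 2 was the lowest at both. Cluster_11977, which covers bases 1 to 2665 of the contig CACSLK010025212.1, was the exception, with 19706 and 8717 in stage 6 haustorium, against 24663 and 39626 in unstaged haustorium. The gap was 1.25-fold and the log2 fold change in edgeR was -1.18 (SE 1.28). In Cluster_16830 and Cluster_4659 the groups overlapped.

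Both of the longest loci named were higher in both stage 6 libraries, by a narrow gap. Cluster_18918, the longest at 8925 nt, had 3169 and 3273 TMM-scaled CPM in stage 6 haustorium, against 2278 and 1307 in unstaged haustorium, a log2 fold change of 0.85 (SE 1.06) in edgeR. Cluster_19819, 7126 nt long and overlapping SHERM_03507, had 2179 and 1769 in stage 6 haustorium, against 1351 and 1189 in unstaged haustorium. In plain CPM the stage 6 libraries were farther apart, at 2630 and 5791 for Cluster_18918, against 2222 and 792 in unstaged haustorium, and at 1808 and 3129 for Cluster_19819, against 1318 and 721. In TMM-scaled CPM the nearest libraries were 1.39-fold apart at Cluster_18918 and 1.31-fold apart at Cluster_19819, and neither passed edgeR.

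Neighbouring loci were compared next. Where a locus was above in both stage 6 libraries and another followed within 1000 nt, the next one was above as well in 209 of 600 cases (34.8%), against 22.5% of all loci that follow another so closely. For losses it was 69 of 338 (20.4%), against 12.9%. The other pairings also had like neighbours more often than their own base. With stage 6 replicate 1 and unstaged replicate 1 as a pair it was 24.3% against 14.4% above, and 22.2% against 15.3% below. With stage 6 replicate 1 and unstaged replicate 3 as a pair it was 19.3% against 11.96% above, and 26.1% against 22.2% below. Close neighbours can be parts of 1 transcript and are not independent. The longest run of consecutive gains was 7 loci, Cluster_15550 to Cluster_15556, from 215283 to 260526 on CACSLK010027829.1. Their summed TMM-scaled CPM was 112 and 91.4 in stage 6 haustorium, against 36.6 and 23.3 in unstaged haustorium, and 91.1 and 86.4 in leaf. The longest run of losses was 5 loci, Cluster_24263 to Cluster_24267, with 113 and 144 in stage 6 haustorium, against 276 and 219 in unstaged haustorium. Runs in the other pairings held 5 to 9 loci.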

How the data were processed

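Small RNA reads of 6 libraries were trimmed by the authors and passed to ShortStack 4.0.4 with its default settings and SHERM as genome, and a raw count of reads per locus was deposited for each library. How reads with several matches were placed is not given in the sources. Reads outside the 25056 loci were not analysed. CPM used all counted reads of a library (3031863 to 8381235). TMM factors and the quasi-likelihood test came from edgeR 4.0.16 (limma 3.58.1, R 4.3.3) with filterByExpr, 3 groups and Benjamini-Hochberg adjustment, leaving 3 residual degrees of freedom. DESeq2 1.42.0, plain CPM, other filters, pseudocounts and class definitions, and leaving out each library were alternatives. The edgeR step was tested on simulated data. Shares were compared with an exact permutation test.

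Named were the 5 other loci with the highest mean CPM, the 10 with the widest gap in each direction among those of at least 10 CPM, any called by edgeR, and the 2 longest. Of contigs with at least 20 loci, the rule took the 3 with the most loci and the 3 with the widest gap in each direction. Loci, classes and lists were chosen with earlier results of these data known. Positions were set against 29520 annotated genes of SHERM. Because PCR copies were not told apart from molecules, the intervals and floors hold for counting error alone. Tables and plots were made in Python 3.11.15 with scipy 1.17.1, numpy 2.4.6, matplotlib 3.10.9 and pandas 2.3.3.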

Additional observations from a re-analysis of the deposited data

How the results depend on the processing

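No paired analysis was possible because the 2 haustorium groups share only replicate number 1. DESeq2 called 193 loci higher and 195 lower, against 0 and 0 with edgeR, and the cause was not tested. Counts of loci apart depended on the settings. Among loci of at least 10 CPM, 1744 were above and 1255 below. In plain CPM 2248 were below and 1569 at least 2-fold above, and a pseudocount of 5 left 330 loci 2-fold above and 563 below. Leaving out 1 library gave 7315 to 9173 above, 7545 to 8784 below, 2338 to 3444 at least 2-fold above and 2805 to 3605 at least 2-fold below, higher by construction since 1 library is compared with a pair. With all 4 libraries kept, differences in shares, in percentage points, changed sign in 3 cases: 0.594 under 400 nt with *MIRNA* loci kept, -0.925 under 5 CPM with classes set on leaf, and 1.47 within 2000 nt of a gene without the 10 strongest loci. Leaving out 1 library also changed signs, with -2.91 to 0.235 for 400 to under 420 nt, -0.0951 to 5.04 for 420 to under 430 nt, -0.482 to 1.36 under 5 CPM, -0.372 to 6.90 from 5 to under 10 CPM and -3.78 to 2.46 within 2000 nt. The log2 fold change of Cluster_18812 ran from -2.51 to 0.25 and that of Cluster_13536 from -4.63 to 0.63, both positive without stage 6 replicate 2. The log2 fold changes of the other 25 named loci kept their sign under each alternative that gave a value. A minimum of 10 counts in every library gave none for the 20 loci with the widest gaps. With 2 libraries a group and a coefficient of variation of 1.00, even the 20 loci with the widest gaps did not pass edgeR.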
